A study of Mus musculus with 9 samples.

Results

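The cadherins *Cdh1*, *Cdh2* and *Cdh3*, the catenins *Ctnnb1*, *Jup*, *Ctnna1* and *Ctnnd1*, and the melanoma adhesion molecules *Mcam*, *L1cam* and *Alcam* were examined in B16 mouse melanoma cells. These 10 genes were chosen by symbol among 22972 genes, all 10 were found, and 7 of them were among the 10109 genes tested, whose mean reached 1 FPKM (sequenced fragments on a gene, scaled by transcript length and library depth). RNA sequencing gave 9 libraries in 3 groups of 3. All libraries came from wild type B16 cells, a melanoma line of C57BL/6 origin, grown on a film of the elastic polymer PDMS and collected on day 3. CTL cells were not strained, and MS cells were cyclically strained for 72 h through the film. MS + Blebb. cells were given 100 ng/mL of blebbistatin, an inhibitor of nonmuscle myosin II, for 72 h. The sample labels of this last group name blebbistatin without straining, whereas the study describes it as strained and treated. The labels call the 3 replicates of a group parallel experiments and do not say that they were separate cultures, so p-values measure the spread between these libraries, which may be technical.

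Classical cadherins join cells by binding the same cadherin on a neighbour. Their cytoplasmic tails hold β-catenin or plakoglobin near the end and p120-catenin near the membrane, and α-catenin links the complex to actin, where it responds to pulling force. β-catenin that is not held at the junction can enter the nucleus and act with TCF factors. In skin, melanocytes attach to keratinocytes through E-cadherin, and melanoma cells often show N-cadherin in its place. MCAM, L1CAM and ALCAM are adhesion proteins of the immunoglobulin superfamily that have been linked to melanoma spread.

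*Mcam* and *Alcam* both had their lowest FPKM in replicate 1 of CTL, replicate 3 of MS and replicate 2 of MS + Blebb. *Cdh2* and *Ctnna1* also had their lowest FPKM in the same library of every group, which in MS was replicate 2. The promoter windows of *Mcam* and *Alcam* are shown because of their shared pattern, described further on. Both were taken from RefSeq on GRCm38.p6 and run from 250 bases before to 50 bases after the transcript start, 5′ to 3′ on the strand of the gene. A window was found for 6 of the 10 members. The *Mcam* window lies at chr9:44134408-44134707 on the plus strand and the *Alcam* window at chr16:52453032-52453331 on the minus strand. Capitals mark matches, on either strand, to the cAMP response element TGACGTCA, the GC box GGGCGG and the E-box CACCTG, which did not overlap each other.
Mcam: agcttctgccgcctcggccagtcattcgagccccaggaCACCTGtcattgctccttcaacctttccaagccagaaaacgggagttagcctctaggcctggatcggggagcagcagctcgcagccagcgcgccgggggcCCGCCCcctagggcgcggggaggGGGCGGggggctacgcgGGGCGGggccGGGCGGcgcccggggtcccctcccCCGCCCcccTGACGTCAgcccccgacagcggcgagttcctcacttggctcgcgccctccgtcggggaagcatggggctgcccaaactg
Alcam: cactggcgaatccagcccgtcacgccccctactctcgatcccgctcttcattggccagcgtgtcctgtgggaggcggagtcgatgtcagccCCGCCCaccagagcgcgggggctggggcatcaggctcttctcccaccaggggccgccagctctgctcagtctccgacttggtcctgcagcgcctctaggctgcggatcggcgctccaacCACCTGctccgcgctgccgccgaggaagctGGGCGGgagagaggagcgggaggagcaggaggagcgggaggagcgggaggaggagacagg
The *Mcam* window held 1 TGACGTCA, 5 GGGCGG and 1 CACCTG, and the *Alcam* window held 0, 2 and 1, respectively. Of 32851 windows of this kind, 1.79% held TGACGTCA, 35.66% held GGGCGG at least once, 2.71% held it 5 times or more, and 20.21% held CACCTG. G and C made up 72.7% of the *Mcam* window and 69.7% of the *Alcam* window. These matches describe letters, and binding was not measured.

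The FPKM of a library summed to between 439939 and 484093, and between 9529 and 10388 genes reached 1 FPKM. All 8 markers of the melanocyte lineage were among the genes tested, with a summed FPKM of 7640 to 13450. The 7 fibroblast markers (led by *Col1a1* and *Pdgfra*) summed to 0.184 to 0.567 FPKM, the 7 endothelial markers (led by *Emcn* and *Vwf*) to 0.055 to 0.151, the 6 macrophage markers (led by *Cd14* and *Itgam*) to at most 0.083 and the 6 keratinocyte markers (led by *Krt14* and *Krt5*) to at most 0.0314, and *Cdh5* of endothelial cells was listed at 0 in all 9 libraries. Of 7 smooth muscle and pericyte markers, *Des* alone was tested, at 4.66 to 9.15 FPKM, and the next by level was *Pdgfrb*. replicate 1 of CTL, replicate 3 of MS and replicate 2 of MS + Blebb. had the lowest scores on the first principal component (70.4% of the variance), at -42.1, -10.0 and -43.9 against -7.3 to 35.8 in the other libraries. Because FPKM is scaled by transcript length, levels of different genes are compared below on the FPKM scale.

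The cadherin profile was that of N-cadherin. *Cdh2*, which encodes N-cadherin, made up 99.6% to 100% of the summed FPKM of *Cdh1*, *Cdh2* and *Cdh3* in each of the 9 libraries. *Cdh1*, which encodes E-cadherin, was listed at 0.0204, 0 and 0.0174 FPKM in CTL, at 0.0304, 0.0115 and 0.0244 in MS and at 0, 0 and 0.0206 in MS + Blebb. *Cdh3*, which encodes P-cadherin and lies beside *Cdh1* on chromosome 8, was listed at 0 in 7 libraries, at 0.00548 in MS replicate 2 and at 0.00711 in MS + Blebb. replicate 3. Neither gene came near the minimum of 1 FPKM in any library. For *Cdh1*, MS against CTL gave p = 0.4 in an exact permutation test (two-sided) and MS + Blebb. against MS gave p = 0.2. The smallest p that 3 libraries against 3 allow is 0.1.

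Among 22 classical and related cadherins, 18 stayed below 0.1 FPKM in every library and 9 of these were listed at 0 throughout. Beside *Cdh2*, *Cdh19* was the only one of the 22 that passed the minimum. *Cdh19* encodes a type II cadherin of the neural crest lineage. It was at 0.619, 3.21 and 5.25 FPKM in CTL, at 7.31, 4.22 and 1.93 in MS and at 1.37, 0.984 and 5.81 in MS + Blebb. Its share of the summed cadherin FPKM ran from 9.20% in CTL replicate 1 to 42.0% in MS replicate 1, and that of *Cdh2* from 53.7% to 77.5%. *Cdh13*, which encodes T-cadherin, a cadherin without a cytoplasmic tail, followed at 0.0559 to 0.955 FPKM.

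**Figure D1:**
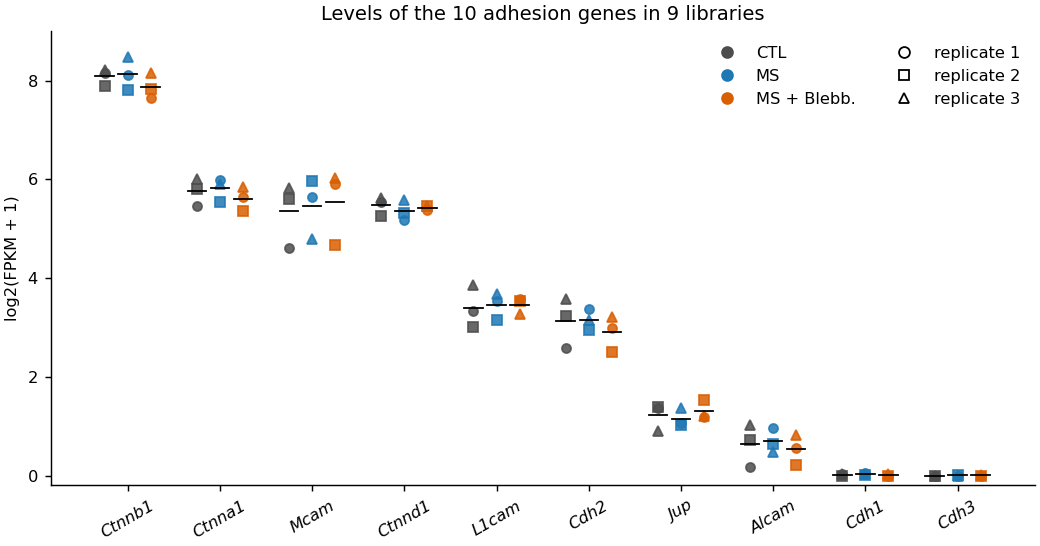
log2(FPKM + 1) of the 10 genes, in order of mean level. Each point is a library, colour gives the group, shape the replicate and the short line the group mean of 3 libraries, and *Ctnnb1* stands above the other 9 genes while *Cdh1* and *Cdh3* lie at 0.

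*Cdh2* was at 5.03, 8.37 and 10.9 FPKM in CTL, at 9.35, 6.72 and 7.90 in MS and at 6.97, 4.67 and 8.23 in MS + Blebb. CTL replicate 1 and MS + Blebb. replicate 2 were the low libraries, and the 3 groups overlapped. The means were 8.09 ± 2.94 in CTL, 7.99 ± 1.32 in MS and 6.62 ± 1.81 in MS + Blebb. (SD, n = 3).

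Of the catenins, *Ctnnb1*, *Ctnna1* and *Ctnnd1* were above *Cdh2* in FPKM in each of the 9 libraries and *Jup* was below it. *Ctnnb1*, which encodes β-catenin, was at 285, 236 and 294 FPKM in CTL, at 276, 224 and 354 in MS and at 201, 227 and 282 in MS + Blebb. It was the highest of the 10 genes in every library, and its range did not overlap that of the next gene in any group. MS replicate 3 was the highest library and MS + Blebb. replicate 1 the lowest, and the groups overlapped. *Ctnnb1* FPKM was 27.0 to 56.7 times that of *Cdh2*, with the highest ratio in CTL replicate 1. *Jup*, which encodes plakoglobin, the relative of β-catenin that also serves desmosomes, was at 1.59, 1.63 and 0.859 FPKM in CTL, at 1.09, 1.04 and 1.59 in MS and at 1.26, 1.89 and 1.30 in MS + Blebb. It contributed 0.291% to 0.827% of the summed FPKM of *Jup* and *Ctnnb1*.

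*Ctnna1*, which encodes the actin linker αE-catenin, was at 43.1, 55.2 and 63.4 FPKM in CTL, at 62.8, 45.6 and 59.0 in MS and at 48.7, 39.8 and 56.2 in MS + Blebb. Its lowest library was CTL replicate 1 in CTL, MS replicate 2 in MS and MS + Blebb. replicate 2 in the treated group, and the groups overlapped. *Ctnna1* FPKM was 5.82 to 8.57 times that of *Cdh2* and 15.1% to 24.3% of that of *Ctnnb1*. *Ctnnd1*, which encodes p120-catenin, the protein that keeps cadherins at the membrane, was at 45.7, 37.2 and 48.1 FPKM in CTL, at 35.0, 39.0 and 46.8 in MS and at 40.6, 42.8 and 42.8 in MS + Blebb. The groups overlapped, and its SD over the 9 libraries, 0.15 on the log2 scale, was the smallest among the 7 members tested. The ranges of *Ctnna1* and *Ctnnd1* overlapped in each group.

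Among the immunoglobulin adhesion molecules, *Mcam* was the highest of the 3 members. It was at 23.4, 47.8 and 56.0 FPKM in CTL, at 48.7, 61.3 and 26.5 in MS and at 59.0, 24.4 and 64.0 in MS + Blebb. Each group thus held 1 low library and 2 high ones, and the 3 low libraries, between 23.4 and 26.5 FPKM, did not overlap the other 6. The means were 42.4 ± 16.9, 45.5 ± 17.6 and 49.1 ± 21.5 FPKM (SD, n = 3). *L1cam*, a partner of integrins and of itself, was at 9.09, 7.08 and 13.5 FPKM in CTL, at 10.6, 7.94 and 11.8 in MS and at 10.9, 10.6 and 8.66 in MS + Blebb. *L1cam* was not low in the libraries in which *Mcam* was low, and its groups overlapped.

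*Alcam* did not reach a mean of 1 FPKM. It was at 0.127, 0.639 and 1.03 FPKM in CTL, at 0.963, 0.559 and 0.388 in MS and at 0.479, 0.155 and 0.778 in MS + Blebb. Its lowest libraries were replicate 1 of CTL, replicate 3 of MS and replicate 2 of MS + Blebb., and the groups overlapped. In exact permutation tests (two-sided) the p was 1 between MS and CTL, 0.5 between MS + Blebb. and MS, and 0.8 between MS + Blebb. and CTL. *Jup* and *Alcam* overlapped in CTL and not in MS or MS + Blebb., where *Jup* was higher.

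**Figure D2:**
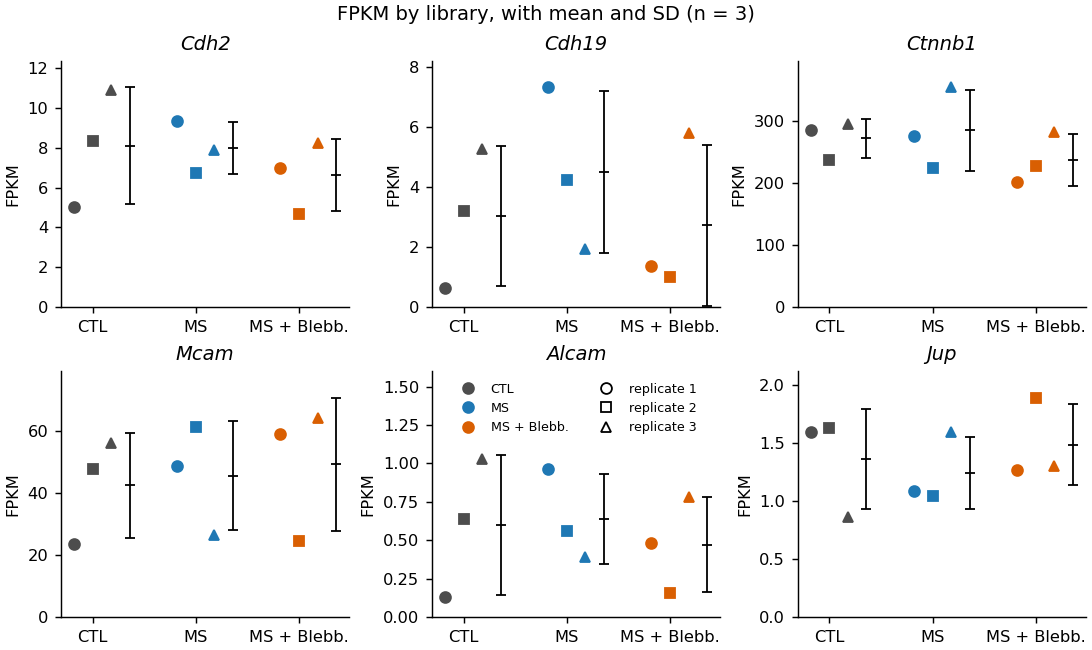
FPKM on linear axes from 0 for *Cdh2*, *Cdh19*, *Ctnnb1*, *Mcam*, *Alcam* and *Jup*. Points are libraries, coloured by group and shaped by replicate, and bars are the mean and SD of 3 libraries. *Mcam* has 1 library at 23.4 to 26.5 FPKM in each group, well below the other 2.

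The comparison of MS with CTL addresses the effect of cyclic straining. None of the 7 members tested was called by limma at an adjusted p under 0.05, against 0% of the 10109 genes, and none reached an unadjusted p under 0.05, against 16 of all genes tested (0.158%). In addition, no member had groups without overlap, compared with 3.17% of all genes tested. *Cdh2* differed by 0.028 on the scale of log2(FPKM + 1), with a standard error of 0.27 and a 95% interval from -0.59 to 0.65. For *Ctnnb1* the difference was 0.047 (SE 0.19, interval -0.39 to 0.49), and for *Ctnnd1* it was -0.11 (SE 0.14, interval -0.44 to 0.21). The widest interval was that of *Mcam*, with a difference of 0.11 and an interval from -0.92 to 1.14. The values of *Jup*, *Ctnna1* and *L1cam* were -0.066, 0.055 and 0.057. Of the 7 members, 5 lay above 0, with a median of 0.047, while 49.5% of all genes tested lay above 0, with a median of -0.0018. The adjusted p of each member was 1.00. The intervals are not adjusted for the number of genes and give the changes compatible with 3 libraries a group. They do not set a limit of detection.

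MS + Blebb. against MS addresses the effect of the myosin inhibitor if both groups were strained, as the study describes. If the labels are complete, straining differed as well, and the effects of inhibitor and straining cannot be told apart. Again none of the 7 members was called by limma in this comparison, against 0% of all genes tested. None reached an unadjusted p under 0.05, against 126 of all genes tested (1.25%), and none had groups without overlap, against 3.73%. *Ctnnb1* differed by -0.25 (SE 0.19, interval -0.69 to 0.19), with an adjusted p of 0.897 in limma. *Cdh2* differed by -0.26 (SE 0.27, interval -0.88 to 0.36) and *Ctnna1* by -0.21 (SE 0.19, interval -0.64 to 0.23), each with the same adjusted p in limma. *Jup* lay at 0.15, *Mcam* at 0.073, *Ctnnd1* at 0.070 and *L1cam* at 0.0046. The interval of *Mcam* ran from -0.96 to 1.11. Of the 7 members, 4 lay above 0, with a median of 0.0046, and the median of all genes tested was -0.0059 with 49.0% above 0.

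MS + Blebb. against CTL shares its libraries with both comparisons above. Its members ran from -0.23 for *Cdh2* to 0.18 for *Mcam*, and 3 of 7 lay above 0 with a median of -0.044, whereas 46.0% of all genes tested did, with a median of -0.013. None of the members was called by limma (0% of all genes tested) or reached an unadjusted p under 0.05 (0.089% of them, 9 genes), and none had groups without overlap (2.08% of them).

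**Figure D3:**
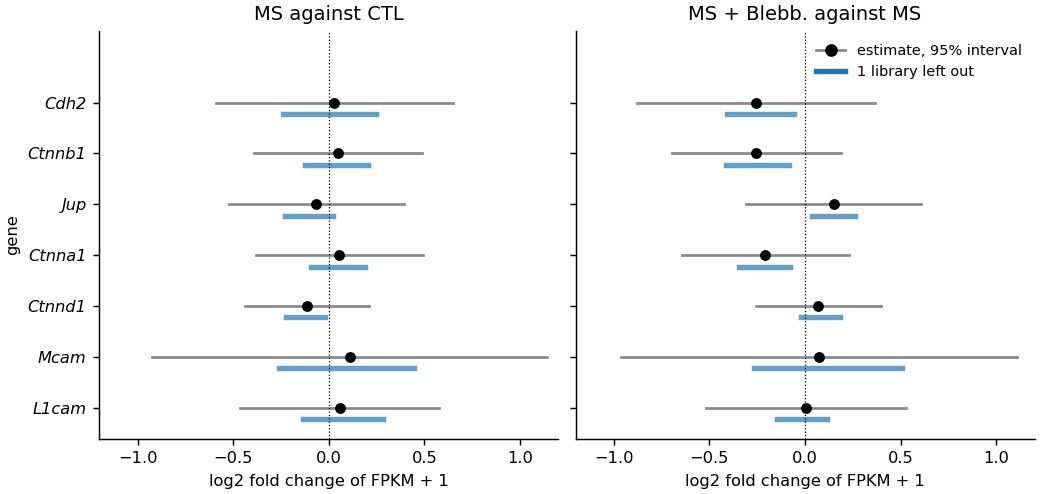
Difference in log2(FPKM + 1) of the 7 members tested, for MS against CTL (left) and MS + Blebb. against MS (right). Black points are the limma estimates, grey lines their 95% intervals and blue lines the range of the estimate with each library of the groups compared left out in turn. Each grey line crosses 0, and *Mcam* has the widest.

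As for the median gene tested, most of the variance of the members tested lay among the libraries of a group. The share of the variance over the 9 libraries that lay between groups was 1.82% for *Mcam*, 1.25% for *L1cam*, 12.4% for *Cdh2* and 21.7% for *Ctnnb1*, beside a median of 12.7% over all genes tested. The SD of *Mcam*, 0.59 on the log2 scale, was at percentile 93.2 of all genes tested, and that of *Cdh2*, 0.35, was at percentile 73.3. The median of all genes tested was 0.23.

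Within CTL, *Mcam* was 2.21-fold higher in the mean of replicates 2 and 3 than in replicate 1. The fold over MS replicate 3 was 2.07 and that over MS + Blebb. replicate 2 was 2.52. *Alcam* was lowest in the same libraries, by 6.56-, 1.96- and 4.05-fold. *Cdh2* was lowest in replicate 1 of CTL, by 1.92-fold, and in replicate 2 of MS + Blebb., by 1.63-fold, and it was not lowest in MS replicate 3. These are also the libraries of lowest score on the first principal component.

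**Figure D4:**
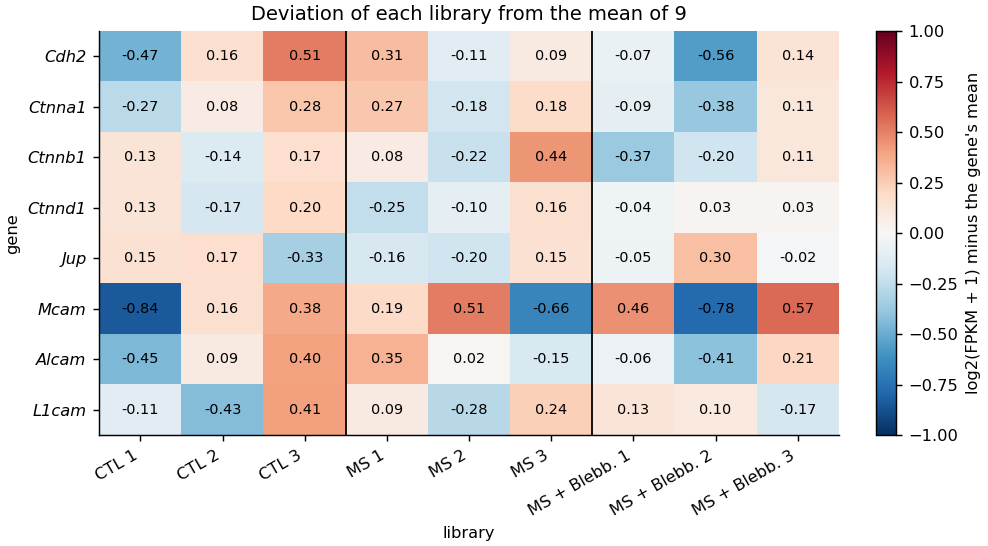
Deviation of log2(FPKM + 1) of 8 genes in each library (columns, groups parted by black lines) from the mean of the gene over 9 libraries, with blue below and red above the mean. *Mcam* is at -0.84, -0.66 and -0.78 in replicate 1 of CTL, replicate 3 of MS and replicate 2 of MS + Blebb. and above 0 in the other 6.

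With these 3 libraries left out together, 2 libraries a group remained. *Mcam* then differed by 0.078 between MS and CTL and by 0.17 between MS + Blebb. and MS, and *Cdh2* by -0.24 and -0.060, with adjusted p of at least 0.998 in limma. Other genes moved with the same libraries. *Pmel*, which encodes the fibril protein of the melanosome, was at 6318 FPKM in CTL replicate 1, 5106 in MS replicate 3 and 5679 in MS + Blebb. replicate 2, and at 2079 to 3631 in the other 6. *Tyrp1*, another melanosome gene, was at 2574, 2622 and 2078 FPKM in these libraries and at 1772 to 2240 in the other 6. It was thus highest of its group in CTL replicate 1 and MS replicate 3, but not in MS + Blebb. replicate 2. The correlation of a gene's deviation with its GC content, across genes, was 0.455, -0.16 and 0.545 in the 3 libraries left out. It was between -0.642 and 0.547 in the others. The part of either in the levels of *Mcam* and *Alcam* was not tested.

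The 3 genes whose pattern over the 9 libraries was most like that of *Cdh2* were *Septin11*, *Mdc1* and *Ticrr*. Their deviations from their own means differed from those of *Cdh2* by a root mean square of 0.059, 0.060 and 0.068 on the log2 scale, whereas the median over all genes tested was 0.35. *Septin11*, a septin of the cytoskeleton, was lowest at 13.45 FPKM in MS + Blebb. replicate 2 and highest at 26.1 FPKM in CTL replicate 3, as was *Cdh2*. *Mdc1* and *Ticrr*, which act in the DNA damage response and in the start of DNA replication, ran from 3.82 to 10.5 and from 0.820 to 3.16 FPKM.

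Repressors of *Cdh1* transcription were unevenly present. Of 9 such genes, *Tcf3*, *Zeb2* and *Tcf4* passed the minimum. *Tcf3*, which encodes E2A, was at 32.3 to 46.1 FPKM. *Zeb2* was at 1.92, 8.19 and 9.52 FPKM in CTL, at 16.3, 5.77 and 5.76 in MS and at 5.00, 2.22 and 8.16 in MS + Blebb., so that its groups overlapped. In all 9 libraries the files list *Twist1* and *Twist2* at 0, *Snai1*, *Snai3* and *Zeb1* stayed below 0.05 FPKM, and *Snai2* was at 0.192 to 0.610 FPKM. None of the 3 genes tested was called, against 0% of all genes tested. *Zeb2* differed by 0.50 (SE 0.58) between MS and CTL and by -0.72 (SE 0.58) between MS + Blebb. and MS.

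Of the desmosome, a junction of epithelia that is anchored to keratins, the genes listed were barely detected. *Jup*, which also serves desmosomes, was not in this list and was at 0.859 to 1.89 FPKM. All 13 genes listed, including *Perp*, *Evpl* and the desmoplakin gene *Dsp*, stayed below 0.1 FPKM in every library, and their sum did not exceed 0.054 FPKM. Of 15 catenins and armadillo relatives, 9 were tested. The highest among genes other than the members were *Ctnnbl1*, a nuclear splicing factor despite its name, at 47.25 to 57.5 FPKM, and *Pkp4*, a p120 relative, at 18.7 to 27.2 FPKM. For MS against CTL 3 of these 9 genes lay above 0 (median -0.066), and 5 did (median 0.070) when MS + Blebb. was compared with MS.

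**Figure D5:**
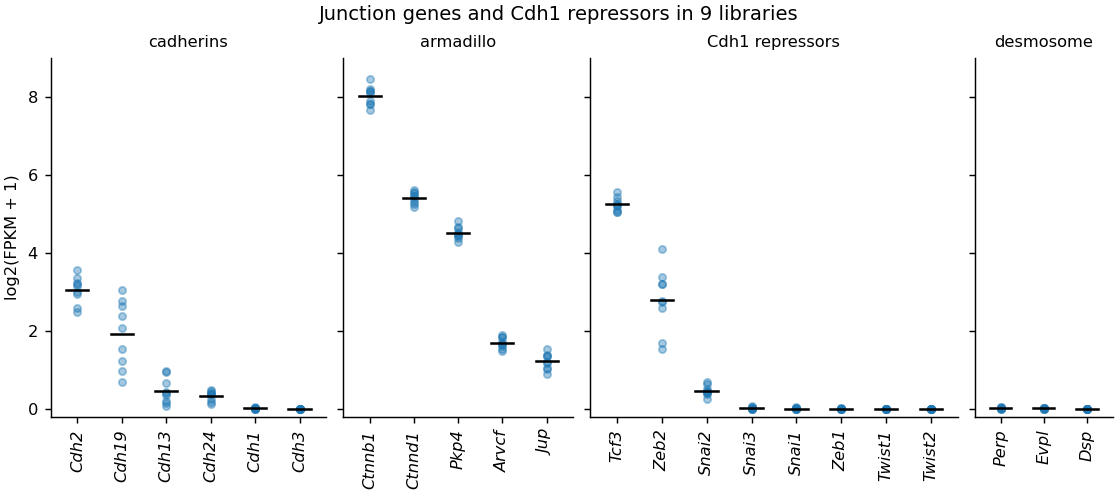
log2(FPKM + 1) in 9 libraries (points) with the mean (line) for selected cadherins, armadillo proteins, repressors of *Cdh1* and desmosome genes. *Cdh2* and *Cdh19* lead the cadherins, *Tcf3* and *Zeb2* the repressors, and the desmosome genes lie at 0 to 0.0413 FPKM.

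Other adhesion systems were present beside the cadherins. Of 20 immunoglobulin superfamily and related adhesion genes, 11 were tested. The highest were *Bsg*, which encodes basigin, at 541 to 848 FPKM, and *Cd44*, the hyaluronan receptor, at 35.5 to 67.5 FPKM. The range of *Cd44* overlapped that of *Mcam*, which was 23.4 to 64.0 FPKM. *Vcam1* was listed at 0 in all libraries and *Icam1* was at 0.0875 to 0.450 FPKM. Of the 11, 7 lay above 0 (median 0.0068) between MS and CTL, and 5 (median -0.080) between MS + Blebb. and MS. Of 17 nectin and junction linker genes 12 were in the files and 10 were tested, led by the actin-binding *Lima1* at 17.2 to 34.8 FPKM and *Limd1* at 16.6 to 22.9 FPKM, with medians of -0.024 and 0.022. All 6 tested genes of the 17 Fat, Dachsous, Celsr and related cadherins lay below 0 in MS against CTL, with a median of -0.16, and 4 of 6 lay above 0 in MS + Blebb. against MS. They were led by the calsyntenin genes *Clstn1* and *Clstn3*.

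The machinery that turns β-catenin over was present, with 10 of 12 genes tested, led by the kinases *Gsk3a* at 50.15 to 67.85 FPKM and *Csnk1a1* at 33.6 to 60.0 FPKM. Its medians were -0.052 and -0.068 in the 2 comparisons. Of 19 TCF factors and Wnt target genes, 9 were tested, with medians of -0.092 and 0.25. The TCF factor *Tcf7l1* was at 5.59 to 7.86 FPKM, and *Lef1* did not exceed 0.0242 FPKM. The targets of highest level were *Ccnd1*, which encodes cyclin D1, and *Myc*. *Ccnd1* was at 29.0, 58.1 and 72.8 FPKM in CTL, at 58.6, 60.3 and 28.7 in MS and at 96.8, 36.3 and 104 in MS + Blebb. Its lowest library in each group was the one in which *Mcam* was lowest, and the groups overlapped. *Ccnd1* differed by -0.090 (SE 0.48) between MS and CTL and by 0.61 (SE 0.48) between MS + Blebb. and MS, the latter with an adjusted p of 0.897 in limma. *Myc* was also lowest in the library of each group in which *Mcam* was lowest. It was at 9.90, 10.95 and 11.5 FPKM there and at 24.0 to 35.9 FPKM in the other 6.

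All 8 genes listed for the cutting of cadherins or L1CAM were tested. The list holds proteases and subunits of a protease complex. *Psen2*, the highest of them and a catalytic subunit of γ-secretase, was at 277, 187 and 155 FPKM in CTL, at 136, 187 and 260 in MS and at 194, 296 and 132 in MS + Blebb. It was highest in the library of each group in which *Mcam* was lowest. *Aph1a*, another subunit of γ-secretase, was second by level. In contrast, *Adam10*, the sheddase of N-cadherin, was at 5.06, 11.9 and 13.8 FPKM in CTL, at 17.2, 8.21 and 10.1 in MS and at 6.28, 4.79 and 13.0 in MS + Blebb., with the groups overlapping. The medians of the 8 genes were -0.022 between MS and CTL and 0.055 between MS + Blebb. and MS. In each of the lists described, limma called 0 genes in any comparison, against 0% of all genes tested. In these lists 0 genes reached an unadjusted p under 0.05. The share over all genes tested was 0.158% for MS against CTL, 1.25% for MS + Blebb. against MS and 0.089% for MS + Blebb. against CTL.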

How the data were processed

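The members and gene lists were chosen with earlier results of these data known. Beside the members, the rule for named genes took the 2 genes of highest mean FPKM in each list and the 3 genes most like *Cdh2*. *Cdh24*, *Arvcf*, *Dsp*, *Adam10*, *Tcf4*, *Tcf7l1*, *Lef1*, *Vcam1*, *Icam1*, *Cdh5* and the *Snai*, *Twist* and *Zeb1* genes were named or drawn after their values were seen, and so were the promoter windows and their motifs.

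The authors extracted RNA with TRIzol, prepared libraries with a SMARTER kit, sequenced them on an Illumina platform and deposited 1 FPKM value per gene and library. The submitters' processing notes name the builds GRCm38 and mm10. The aligner, the counting program and the annotation are not given in the sources used here. The values in 1 file carry no unit in their header and were read as FPKM like the others. Depth is unknown, so no counting interval is given.

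Values were transformed as log2(FPKM + 1), with a pseudocount of 1, which understates changes of low genes. The genes whose mean over 9 libraries reached 1 FPKM were fitted in limma 3.58.1 under R 4.3.3 (lmFit on 3 groups, eBayes with a trend), two-sided, with Benjamini-Hochberg adjustment over 10109 genes and a threshold of 0.05. Fold changes between groups are on this scale. Members below the minimum were compared by an exact permutation test in scipy 1.17.1. GC content came from GENCODE M21 for 9663 of the genes tested (95.6%). Alternatives were other pseudocounts, minimums and scalings, removal of the GC trend, the replicate number as a block and libraries left out. Plots were drawn with matplotlib 3.10.9.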

Additional observations from a re-analysis of the deposited data

How the results depend on the processing

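No member was called under any alternative run, and the lowest adjusted p of a member in limma was 0.966 between MS and CTL and 0.450 between MS + Blebb. and MS. Of the alternatives other than leaving out 1 library, 5 could move an estimate, and of 35 member values in each comparison they reversed 6 for MS against CTL and 2 for each of the other comparisons. With replicate 1 of CTL, replicate 3 of MS and replicate 2 of MS + Blebb. left out together, 4 members turned below 0 in MS against CTL, at -0.24 for *Cdh2*, -0.085 for *Ctnnb1*, -0.14 for *Ctnna1* and -0.088 for *L1cam*. Quantile normalization put *Cdh2* at -0.0076. Removal of the GC trend put *Jup* at 0.037 in that comparison, and *Mcam* at -0.014 and *L1cam* at -0.068 in MS + Blebb. against MS. Against CTL, MS + Blebb. turned to -0.011 for *L1cam* without the 3 libraries and to 0.022 for *Ctnnd1* without the GC trend. For these reversals the cause was not tested. With each library of the groups compared left out in turn, 12 of 42 values reversed in MS against CTL, and 7 of 42 in each of the other comparisons. In MS against CTL the ranges were -0.24 to 0.25 for *Cdh2*, -0.12 to 0.21 for *Ctnnb1*, -0.23 to 0.021 for *Jup*, -0.095 to 0.19 for *Ctnna1*, -0.26 (without CTL replicate 1) to 0.45 (without MS replicate 3) for *Mcam*, -0.14 to 0.28 for *L1cam* and -0.23 (without MS replicate 3) to -0.021 (without MS replicate 1) for *Ctnnd1*. In MS + Blebb. against MS they were -0.023 to 0.18 for *Ctnnd1*, -0.27 (without MS replicate 3) to 0.50 (without MS + Blebb. replicate 2) for *Mcam* and -0.14 to 0.12 for *L1cam*. In that comparison *Cdh2* ran from -0.41 (without MS + Blebb. replicate 3) to -0.058 (without MS + Blebb. replicate 2), *Ctnnb1* from -0.41 (without MS replicate 2) to -0.085 (without MS replicate 3), *Ctnna1* from -0.34 (without MS replicate 2) to -0.079 (without MS + Blebb. replicate 2) and *Jup* from 0.036 (without MS + Blebb. replicate 2) to 0.26 (without MS replicate 3). Over all genes tested, 0 to 1 gene was called with 1 library left out in either comparison. The number at an unadjusted p under 0.05, 16 and 126 as reported, ran from 7 to 115 and from 34 to 934 with 1 library left out, and from 11 to 183 and from 62 to 382 under the other alternatives.

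The labels do not say whether libraries of the same replicate number were run together. The deviations of 2 of 9 same-numbered pairs correlated above 0.1 (r from -0.785 to 0.835). Of 18 pairs with different numbers, 10 did (r from -0.882 to 0.923). These values cannot decide on pairing, because deviations from a mean of 3 libraries are tied within a group. With the replicate block the count of members called stayed at 0, and *Ctnnb1* differed by -0.25 in MS + Blebb. against MS, with an adjusted p of 0.949 in limma. FPKM without depth limits what can be said of *Cdh1*, *Cdh3* and *Alcam*, since a value near 0 may rest on a few fragments or none, and 3 libraries a group left *Mcam* an interval from -0.92 to 1.14 in MS against CTL.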

Other observations

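The genes whose pattern over the 9 libraries was most like that of *Mcam* were looked up after the values were seen. The first 5 were *Sapcd2*, *Traip*, *Rpa2*, *Asf1b* and *Igf2bp1*, with a root mean square difference in deviation from *Mcam* of 0.11 to 0.14 on the log2 scale, beside a median of 0.57 over all genes tested. *Rpa2*, a subunit of the protein that coats single-stranded DNA, was at 15.2 FPKM in CTL replicate 1, 18.4 in MS replicate 3 and 15.4 in MS + Blebb. replicate 2, and at 31.8 to 36.55 FPKM in the other 6 libraries. *Asf1b*, a histone chaperone of dividing cells, was at 20.25, 21.4 and 20.3 FPKM in those libraries and at 40.05 to 44.6 FPKM in the other 6. *Igf2bp1*, an RNA-binding protein, was at 0.867, 0.888 and 0.874 FPKM and at 2.58 to 3.12 FPKM in the other 6. None of these genes was tested between the libraries, since the low libraries were recognised from the data.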
